A study of Mus musculus with 6 samples.

Results

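The annexin family was examined through the 10 genes Anxa1, Anxa2, Anxa3, Anxa4, Anxa5, Anxa6, Anxa7, Anxa9, Anxa10 and Anxa11, found by gene name among 51912 genes of an RNA-seq table. The table holds 6 libraries of B16F10, a pigmented mouse melanoma cell line. The A10KO group (ANXA10-/-, replicates 1, 13 and 14) was compared with the WT group (wild type, replicates 1, 2 and 3). The labels name no treatment, and the series' design speaks of a single wild-type and a single knockout line. They do not state how the gene was disrupted, or whether the replicate numbers stand for clones, separate cultures or repeats. The p-values below therefore set the group difference only against the spread between libraries of a group, and that spread may be technical.

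Annexins are proteins that bind negatively charged membrane phospholipids, such as phosphatidylserine, when calcium rises. They share a core of repeated domains that holds the calcium sites, and differ in the head that precedes it. Family members take part in membrane repair, vesicle traffic and the anchoring of the cytoskeleton to membranes, and several bind small calcium-binding proteins of the S100 family through the head. The study's title sets ANXA10 beside the proteins PKD1 and TRIM41 in melanoma metastasis. The question addressed here is narrower: the transcript levels of the annexins in the A10KO and WT libraries.

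Values are TPM, a relative measure of transcript number that corrects for transcript length, so levels can be set side by side between genes. Sequencing depth cannot be read from TPM and is unknown, and no counting interval is given. The share of TPM from mitochondrially encoded genes was 7.93%, 14.7% and 7.37% for A10KO replicates 1, 13 and 14, against 6.32% to 6.56% in WT, so that A10KO replicate 13 stood apart. The 9 melanocyte markers were all tested, with summed levels between 12300 and 13240 TPM in A10KO and between 11640 and 12640 TPM in WT. Of 12 leukocyte markers 3 were listed at 0 in every library, Ptprc reached at most 0.01 TPM, and the summed level was 1.37 to 3.26 TPM in A10KO and 3.73 to 6.83 TPM in WT. Of 8 fibroblast markers 5 stayed under 1 TPM in every library, Lum was listed at 0, and the sum was 1.82 to 4.79 TPM in A10KO and 4.48 to 5.53 TPM in WT. Of 7 endothelial markers 5 stayed under 1 TPM and Emcn was listed at 0, with a sum of 21.6 to 38.2 TPM in A10KO and 14.2 to 23.5 TPM in WT. Its 2 tested members differed in opposite directions: Tek averaged 28.5 TPM in A10KO and 10.4 TPM in WT, and Vwf 2.92 TPM in A10KO and 7.22 TPM in WT. All 7 epithelial markers stayed under 1 TPM, and Epcam was listed at 0. The summed level of 12 immediate early genes was 162.7 to 213 TPM in A10KO and 219.7 to 300.9 TPM in WT. These differences in marker, mitochondrial and immediate early transcripts lie beside every annexin difference below, and their part in it was not tested.

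Start regions of the family differ in their CpG content. RefSeq tables on GRCm38.p6 held a window from 250 bases before to 50 bases after an annotated start for 8 of the 10 annexins, and the letters TATAAA and TGACTCA were searched in them on both strands. TGACTCA is the classic site of AP-1 factors, and the searched motifs do not overlap each other. Over all 32851 windows, 13.6% held TATAAA and 5.2% held TGACTCA. Windows are shown for Anxa1, the annexin with the largest log2 change between the groups, for Anxa2, among the most abundant, and for Anxa10, the targeted gene. These are also the only annexins with a match in a window. That of Anxa5, the annexin with the highest mean, held none and is not shown. Capitals mark the matches, and a TGACTCA match on the opposite strand reads TGAGTCA.
Anxa1 (chr19:20390622-20390921, minus strand): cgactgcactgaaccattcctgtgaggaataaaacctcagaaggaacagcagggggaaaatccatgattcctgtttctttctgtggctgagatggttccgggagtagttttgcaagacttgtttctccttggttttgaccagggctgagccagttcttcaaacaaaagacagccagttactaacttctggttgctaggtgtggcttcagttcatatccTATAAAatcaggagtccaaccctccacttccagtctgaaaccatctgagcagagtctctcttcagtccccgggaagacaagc
Anxa2 (chr9:69453433-69453732, plus strand): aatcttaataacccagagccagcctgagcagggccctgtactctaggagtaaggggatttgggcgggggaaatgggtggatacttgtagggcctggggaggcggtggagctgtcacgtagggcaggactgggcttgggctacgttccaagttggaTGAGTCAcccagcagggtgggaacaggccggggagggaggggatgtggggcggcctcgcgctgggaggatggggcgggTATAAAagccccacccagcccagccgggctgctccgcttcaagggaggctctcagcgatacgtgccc
Anxa10 (chr8:62123144-62123443, minus strand): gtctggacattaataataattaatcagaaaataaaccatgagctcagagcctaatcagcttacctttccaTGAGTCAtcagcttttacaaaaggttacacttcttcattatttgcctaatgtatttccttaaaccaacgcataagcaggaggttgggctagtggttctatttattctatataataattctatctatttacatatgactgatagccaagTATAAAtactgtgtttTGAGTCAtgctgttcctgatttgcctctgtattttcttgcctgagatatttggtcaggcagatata
The TATAAA match began 32 bases before the start in Anxa1 and Anxa10 and 17 bases before it in Anxa2. TGACTCA matched in reverse once in Anxa2, 95 bases before the start, and at 180 and 16 bases before it in Anxa10. The other annexin windows held neither motif. CpG dinucleotides, which are dense in the start regions of widely used genes, numbered 1 in the Anxa10 window, 3 in that of Anxa1, 13 in that of Anxa2, 16 in that of Anxa5 and 25 in that of Anxa11. Anxa4, Anxa7 and Anxa9 each had a pair of windows that differed widely, with 3 and 20 CpG in Anxa4, 19 and 4 in Anxa7, and 3 and 36 in Anxa9. The median window held 21 among genes tested and 3 among genes listed at 0 in all libraries. A match describes these letters only and says nothing of a factor's binding.

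Annexin A10 itself gave no reading: its gene, Anxa10 (chromosome 8, 62057042 to 62123150 on GRCm38), had a listed value of 0 in all 3 A10KO and all 3 WT libraries. Anxa3, whose product was first purified from placenta as an anticoagulant protein, was also listed at 0 in all 6, as were Anxa8 and Anxa13, the annexin genes outside the 10. A listed 0 need not mean absence: mt-Atp6, an ATP synthase gene that cells of this kind use, was also listed at 0 in all 6, and mt-Co3, a cytochrome oxidase gene, at no more than 0.29 TPM. By contrast mt-Atp8, another mitochondrial ATP synthase gene, was listed at 26556.39 to 74021.09 TPM. Why the values of mt-Atp6 and mt-Co3 were so low was not tested, so they do not tell how the 0 of Anxa10 arose. The targeted gene therefore gave no check of the labels, and no fold can be given for it or for Anxa3.

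The other 8 annexins reached at least 1 TPM in 3 or more libraries and entered the test. In WT the order of mean levels was Anxa5, Anxa2, Anxa1, Anxa4, Anxa6, Anxa11, Anxa7 and Anxa9. Neighbours in that order whose WT libraries overlapped were Anxa5 with Anxa2, Anxa1 with Anxa4, and Anxa4 with Anxa6. In A10KO the order was Anxa5, Anxa2, Anxa11, Anxa6, Anxa4, Anxa1, Anxa7 and Anxa9. Only the steps below Anxa2 and below Anxa7 separated the A10KO libraries, so the places in between are not resolved there. By mean TPM over the 6 libraries Anxa5 ranked 409 and Anxa2 ranked 495 among all 51912 genes, and Anxa9 ranked 10043.

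**Figure D1:**
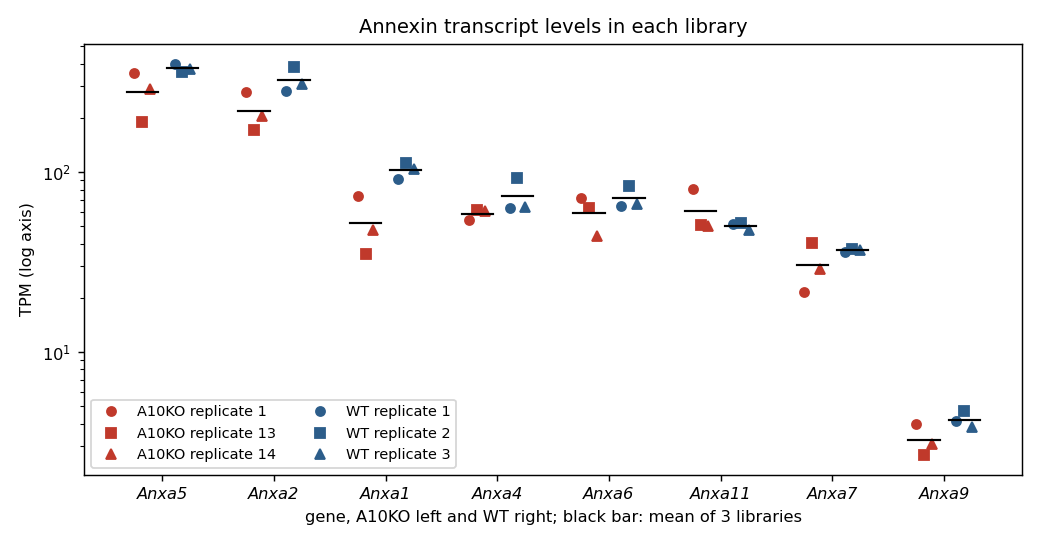
Levels of the 8 annexins above 0 in each library, in TPM on a log axis, with A10KO (red) left of WT (blue), marker shape for the replicate and a black bar for the mean of 3 libraries. Anxa5 and Anxa2 lie highest and Anxa9 lowest in every library, and for Anxa1 all A10KO points lie under all WT points.

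The summed level of the 10 annexins was 943, 616 and 733 TPM in A10KO replicates 1, 13 and 14, against 995, 1128 and 1009 TPM in WT replicates 1, 2 and 3. All A10KO sums were below all WT sums, with A10KO replicate 1 the closest to WT. In a bulk sample, fewer cells of a type and less RNA per cell cannot be told apart. As a share of the library the sum was 0.0784% ± 0.0168 in A10KO and 0.107% ± 0.00775 in WT (SD, n = 3 each). With mitochondrially encoded transcripts taken out of the total it was 0.0868% ± 0.016 in A10KO and 0.114% ± 0.00832 in WT. Anxa5 and Anxa2 together made up 58.8% to 68.0% of the sum in A10KO and 66.1% to 68.7% in WT. Anxa1 made up 6.67% ± 1.03 of it in A10KO and 9.82% ± 0.576 in WT, and Anxa11 made up 7.93% ± 0.911 in A10KO and 4.84% ± 0.306 in WT (SD, n = 3 each). A share also moves with the sum: in A10KO replicates 13 and 14 Anxa11 itself, at 51.2 and 50.5 TPM, lay inside the WT range of 47.5 to 52.2 TPM.

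**Figure D2:**
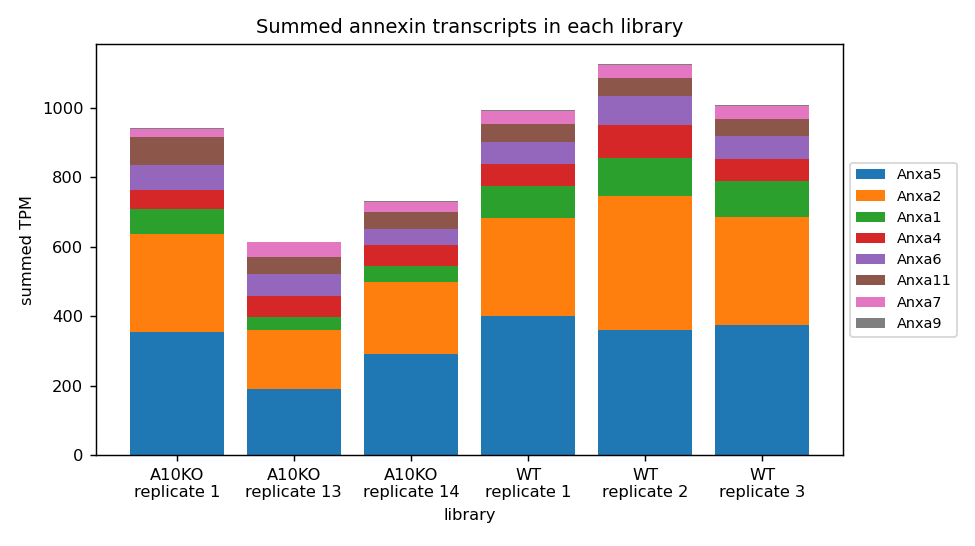
Summed TPM of the annexins in each library (y axis, TPM), stacked by gene, with the A10KO libraries left of the WT libraries. The A10KO bars reach 943, 616 and 733 TPM and the WT bars 995, 1128 and 1009 TPM, with Anxa5 and Anxa2 the widest bands throughout.

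Log2 changes below are A10KO minus WT on the log2(TPM + 1) scale and come from limma over 12068 genes, with Benjamini-Hochberg adjustment and a threshold of 0.05. Of the 8 annexins tested 0 passed it, against 0.0414% of all tested genes (0.0249% lower and 0.0166% higher). At an unadjusted limma p under 0.05, 2 of 8 were lower (Anxa1 and Anxa2) and 0 higher, against 8.83% of all tested genes, 6.27% lower and 2.56% higher. The log2 change was below 0 in 7 of 8, with a median of -0.31, against 56.5% and a median of -0.04 over all tested genes. For 4 of 8 every A10KO library lay below every WT library, against 11.5% of all tested genes, and for 0 of 8 every A10KO library lay above, against 5.61%. That count of 4 depends on the scaling. It was 2 (Anxa1 and Anxa5) with mitochondrial transcripts removed, against 8.9%, and 2 (Anxa1 and Anxa4) under median-of-ratios scaling, against 8.91%, and under trimmed-mean scaling, against 8.88%. With mitochondrial transcripts removed, the groups of Anxa5 all but met: the highest A10KO and the lowest WT library both rounded to 386.8 TPM.

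Anxa1 encodes the glucocorticoid-induced annexin known for dampening inflammation through formyl peptide receptors. It stood at 73.3, 35.2 and 47.7 TPM in A10KO replicates 1, 13 and 14, against 91.5, 112 and 104 TPM in WT replicates 1, 2 and 3. The groups did not overlap, and A10KO replicate 13 was lowest. Its mean was 52.1 ± 19.4 TPM in A10KO and 103 ± 10.4 TPM in WT (SD, n = 3 each). The log2 change of -1.02 (SE 0.25, 95% interval -1.61 to -0.44) had a limma adjusted p = 0.314, so it did not pass over all genes. It was -0.78 without A10KO replicate 13 and -1.30 without A10KO replicate 1, and the adjusted p ran from 0.127 to 0.938 over the alternatives. Anxa1 lies on chromosome 19, 20373428 to 20390944, on the minus strand. Leukocytes are rich in annexin A1, and while Ptprc, the marker that defines them, reached at most 0.01 TPM, Cd68, a macrophage marker and the only leukocyte marker tested, stood at 1.29, 0.89 and 0.86 TPM in A10KO and 2.42, 4.70 and 4.80 TPM in WT. Other markers of that list, all at low levels, were mixed. Laptm5 differed in the same direction without overlap, at 0.2, 0.02 and 0.06 TPM in A10KO and 0.44, 0.75 and 0.34 TPM in WT. Itgam averaged 0.137 TPM in A10KO and 0.173 TPM in WT, with overlapping groups. Fcer1g averaged 0.56 TPM in A10KO and 0.367 TPM in WT, and Lyz2 averaged 0.527 TPM in A10KO and 0.503 TPM in WT. Tyrobp, Cd3e and Adgre1 were listed at 0.

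Anxa2, whose product pairs with S100A10 at the inner face of the plasma membrane and helps to activate plasminogen, was among the most abundant members. It had 281, 171 and 206 TPM in A10KO replicates 1, 13 and 14, against 281, 384 and 311 TPM in WT replicates 1, 2 and 3. A10KO replicate 1 (280.76 TPM) and WT replicate 1 (281.4 TPM) all but met, so the separation of the groups is slight. The log2 change was -0.59 (SE 0.20, 95% interval -1.06 to -0.11, limma adjusted p = 0.498), and -0.42 without A10KO replicate 13.

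Anxa5 encodes the annexin whose purified form is used to stain phosphatidylserine on dying cells. It had 356, 191 and 292 TPM in A10KO replicates 1, 13 and 14, against 402, 362 and 375 TPM in WT replicates 1, 2 and 3. A10KO replicate 1 again lay next to the WT range, and replicate 13 far below it. The log2 change was -0.48 (SE 0.22, 95% interval -0.99 to 0.03, limma adjusted p = 0.568). It was -0.23 without A10KO replicate 13.

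Anxa4, an annexin best known from secretory epithelia, had 54.1, 61.2 and 60.6 TPM in A10KO replicates 1, 13 and 14, against 63.3, 92.9 and 64.3 TPM in WT replicates 1, 2 and 3. Its A10KO libraries lay close together and just below WT replicates 1 and 3, with WT replicate 2 apart. Anxa4 was the only annexin tested whose log2 SD was smaller in A10KO (0.10) than in WT (0.31). For the other 7 the SD was larger in A10KO, as for 78.3% of all tested genes. Over all tested genes the median log2 SD was 0.291 in A10KO and 0.144 in WT. The limma fit nevertheless takes the same variance for both groups of a gene.

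Anxa6 encodes the largest annexin, with a duplicated core. Its longest annotated coding region in GENCODE M21 has 673 codons, against 319 in Anxa4 and Anxa5 and 324 in Anxa10. It had 71.9, 62.9 and 44.2 TPM in A10KO replicates 1, 13 and 14, against 65.1, 83.3 and 66.5 TPM in WT replicates 1, 2 and 3. The groups overlapped, with only A10KO replicate 14 clearly below WT. Anxa9, whose human protein has calcium sites too altered to bind in the usual way, was the lowest of the detected members at 3.99, 2.67 and 3.09 TPM in A10KO and 4.12, 4.70 and 3.81 TPM in WT. Those groups overlapped as well. Anxa9 (chromosome 3, 95296096 to 95307176) overlaps Mindy1 on the opposite strand at its 3' end (mean 14.9 TPM). At its 5' end it overlaps 6330562C20Rik on the same strand (mean 7.09 TPM). The strand setting is not given, and no such setting would separate genes on the same strand, so the Anxa9 value is uncertain.

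Anxa7 and Anxa11 encode annexins with long heads rich in glycine and proline, and both genes lie on chromosome 14, at 20455260 to 20480133 and at 25842156 to 25886804. Anxa7 had 21.6, 40.5 and 29.0 TPM in A10KO replicates 1, 13 and 14, against 36.0, 37.6 and 37.2 TPM in WT replicates 1, 2 and 3. Anxa11 had 80.9, 51.2 and 50.5 TPM in A10KO replicates 1, 13 and 14, against 51.6, 52.2 and 47.5 TPM in WT replicates 1, 2 and 3. In A10KO replicate 1 the level of Anxa7 was the lowest of the 6 libraries and that of Anxa11 the highest. The other A10KO libraries had Anxa11 inside the WT range, and its log2 change of 0.23 (SE 0.20, 95% interval -0.22 to 0.69, limma adjusted p = 0.77) was 0.01 without A10KO replicate 1. That of Anxa7 was -0.32 (SE 0.22, 95% interval -0.83 to 0.19, limma adjusted p = 0.725), with -0.11 without A10KO replicate 1 and -0.54 without A10KO replicate 13.

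The Anxa11 value carries a further limit, because 2 annotated pseudogenes on chromosome 14 copy part of its coding region. The annotated transcript of Gm2260 (26016431 to 26025837) matched Anxa11 over 657 bases at 100% identity, and it was listed at no more than 3.35 TPM. That of Gm2274 (26156036 to 26163648) matched it over 609 aligned positions, with 2 differences near its 5' end. The opening of that match is shown from base 993 of the Anxa11 transcript and base 1 of Gm2274, with differing bases in capitals. The 549 positions after it were identical, so reads from there cannot be assigned to either gene by sequence.
Anxa11: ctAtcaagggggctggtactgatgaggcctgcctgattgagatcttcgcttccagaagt
Gm2274: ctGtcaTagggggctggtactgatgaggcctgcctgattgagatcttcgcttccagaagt
Gm2274 was listed at 34.8, 17.0 and 23.2 TPM in A10KO replicates 1, 13 and 14, against 24.6, 19.0 and 15.6 TPM in WT replicates 1, 2 and 3. It too was highest in A10KO replicate 1. The sum of Anxa11 and both pseudogenes was 119, 68.1 and 73.6 TPM in A10KO and 76.2, 71.2 and 65.9 TPM in WT, with the same library on top. TPM is per length, and the transcripts have 657 bases in Gm2260 and 609 in Gm2274, against 2394 in Anxa11. A read counts for more TPM in the shorter transcripts, so the sum is not a corrected level of Anxa11. Among the annexins searched, no other had a copy of at least 200 bases at 90% identity or more among the annotated transcripts of other genes.

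**Figure D3:**
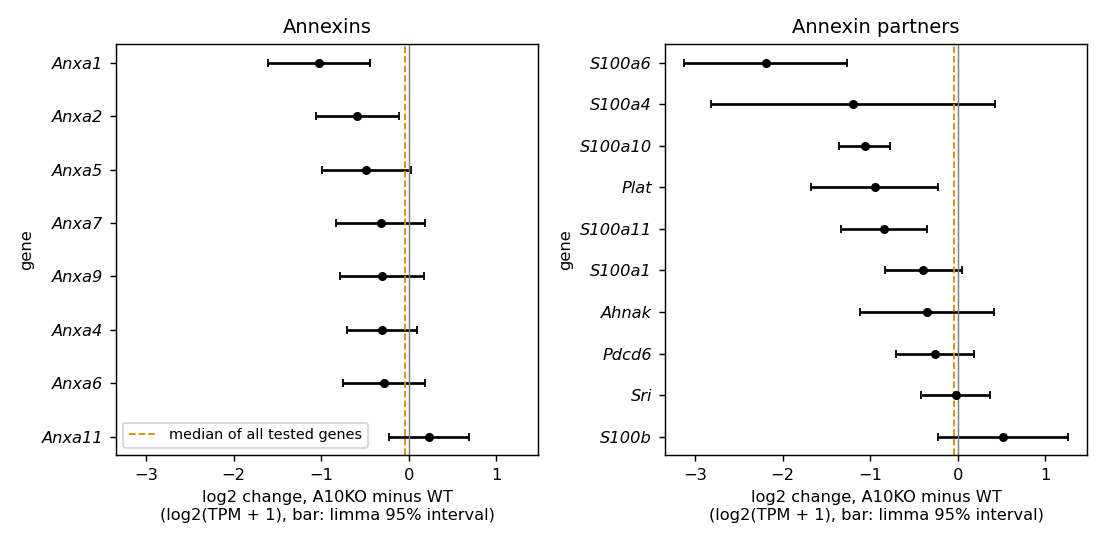
Log2 changes of the 8 annexins and of the 10 annexin partner genes tested, A10KO minus WT on the log2(TPM + 1) scale, with limma 95% intervals. The dashed line is the median of all tested genes (-0.04). Anxa1 lies farthest to the left of the annexins, Anxa11 is right of 0, and S100a10 has the narrowest interval of the partners.

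Chromosome by chromosome, the A10KO libraries differed in their medians, so each annexin was set beside the other genes of its chromosome with a mean of at least 5 TPM. Differences here are those of an A10KO library from the WT mean on the log2(TPM + 1) scale, less the library's own median. In A10KO replicate 13 Anxa5 was at -0.98 and the median of 436 other genes of chromosome 3 at -0.24. Anxa9, on the same chromosome, was at -0.50 there, and its 66 neighbours within 5 Mb at -0.52. In A10KO replicate 1 Anxa2 was at -0.08, beside 0.28 for chromosome 9, and Anxa4 at -0.29, beside 0.23 for chromosome 6. Anxa1 was at -0.35, -1.51 and -1.06 in A10KO replicates 1, 13 and 14, whereas the medians of chromosome 19 were -0.01, -0.03 and 0.04. The chromosome 14 medians of -0.01, 0.09 and -0.02 beside Anxa7 likewise lay near 0, while in A10KO replicate 1 Anxa7 was at -0.63 and Anxa11 at 0.79.

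**Figure D4:**
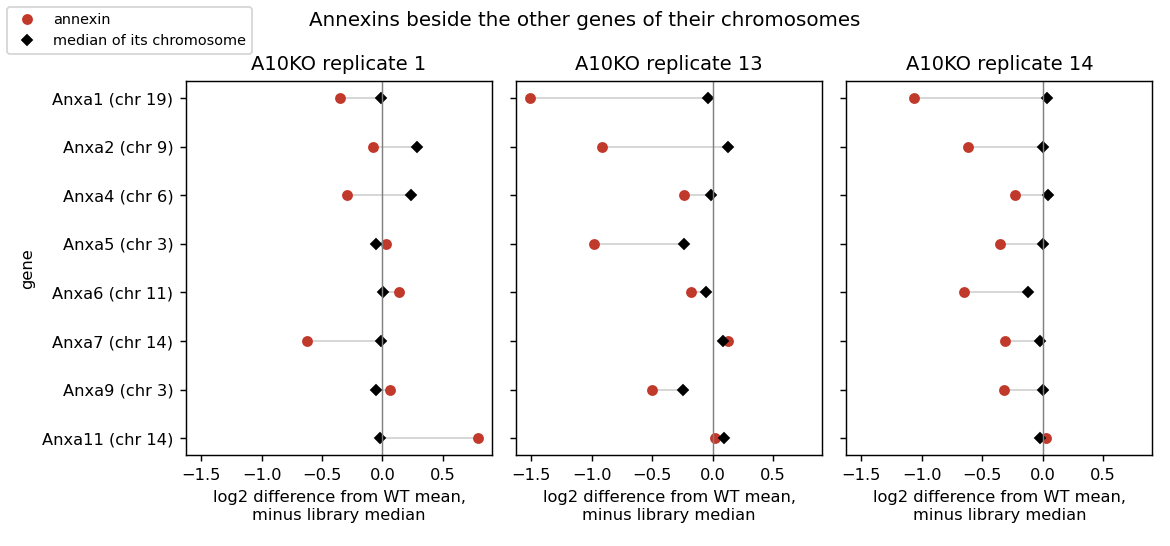
Difference of each annexin from the WT mean in each A10KO library (red circles) and the median of the other genes of its chromosome (black diamonds), both on the log2(TPM + 1) scale less the library median. In A10KO replicates 13 and 14 the circle of Anxa1 lies at -1.51 and -1.06 with its diamond near 0, and in A10KO replicate 1 the circles of Anxa7 and Anxa11 lie on opposite sides of theirs.

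By a rule set for naming genes of like pattern, the 3 genes nearest to Anxa1 were Parp12, a mono-ADP-ribosyltransferase gene induced by interferon, Cpe, which encodes the prohormone-processing carboxypeptidase E, and Ypel3, a Yippee family gene. The measure was the root mean square difference of mean-centred log2(TPM + 1) values over the 6 libraries, among 8832 genes. It was 0.13 for Parp12, 0.13 for Cpe and 0.14 for Ypel3. Cpe, for example, had 158, 96.3 and 101 TPM in A10KO replicates 1, 13 and 14, against 215, 289 and 240 TPM in WT replicates 1, 2 and 3. Within the family the nearest pair of genes was Anxa2 with Anxa9 (0.19), and Anxa1 with Anxa7 the farthest apart (0.66). The scale understates changes of low genes such as Anxa9, whose value is also uncertain, so its nearness to Anxa2 is not resolved. Anxa2 with Anxa5 stood at 0.20.

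Of 14 annexin partner genes 10 were tested, 0 passed the threshold in either direction, against 0.0414% of all tested genes. The log2 change was below 0 in 9 of the 10, with a median of -0.62, against 56.5% and a median of -0.04 over all tested genes. In the deposited values every A10KO library lay below every WT library for 4 of the 10 (S100a6, S100a10, S100a11 and Plat), against 11.5% of all tested genes. For Plat the separation was slight, with 6.28 TPM in A10KO replicate 13 and 6.84 TPM in WT replicate 1. The count was not repeated under the other scalings, which lowered that of the annexins. S100a10, the partner of annexin A2, had 93.9, 73.3 and 80.8 TPM in A10KO replicates 1, 13 and 14, against 176, 170 and 172 TPM in WT replicates 1, 2 and 3. The groups lay far apart relative to the spread within each, yet its log2 change of -1.06 (SE 0.13, 95% interval -1.35 to -0.77) had a limma adjusted p = 0.0827. The adjusted p was 0.0474 without A10KO replicate 1 and between 0.0516 and 0.452 under the other alternatives. The ratio of S100a10 to Anxa2 in TPM was 0.334, 0.43 and 0.391 in A10KO replicates 1, 13 and 14 and 0.624, 0.444 and 0.555 in WT replicates 1, 2 and 3.

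S100a11, the partner of annexin A1, had 278, 157 and 256 TPM in A10KO and 406, 403 and 396 TPM in WT, again without overlap (log2 change -0.84, SE 0.21, limma adjusted p = 0.323). S100a6, a partner of annexin A11, had 6.75, 1.33 and 3.43 TPM in A10KO and 17.3, 19.6 and 19.4 TPM in WT (log2 change -2.20, SE 0.40, limma adjusted p = 0.189). Neither change passed the threshold, although every A10KO library lay below every WT library for both. S100a1 and S100b, both reported to bind annexin A6, had log2 changes of -0.39 and 0.52 with overlapping groups. Single libraries moved both: S100b was at 0.17 without A10KO replicate 1 and 0.86 without A10KO replicate 14, and S100a1 was at -0.23 without A10KO replicate 14. S100a4 was at 6.09, 0.26 and 0 TPM in A10KO and 3.39, 5.26 and 2.91 TPM in WT, with A10KO replicate 1 highest of all.

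**Figure D5:**
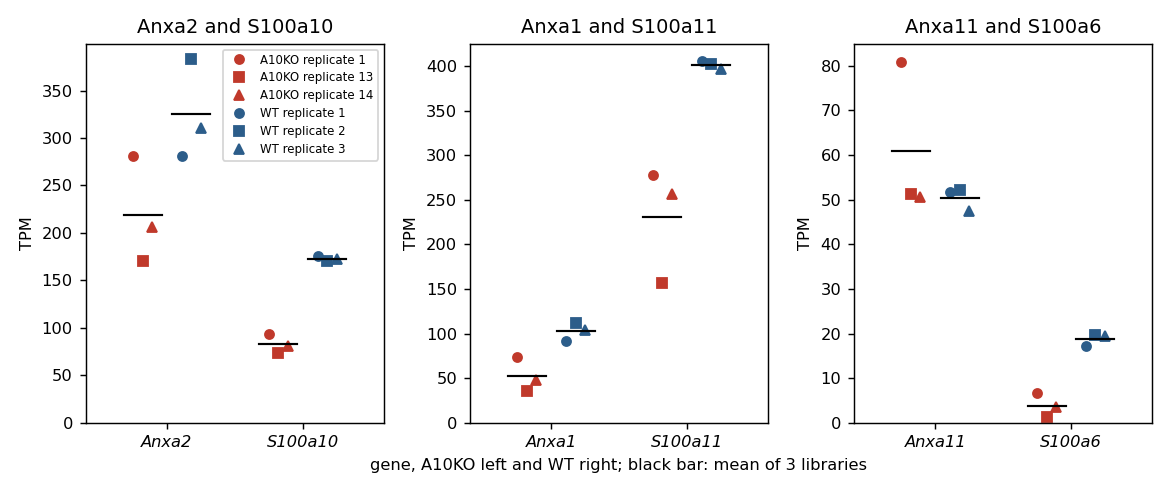
TPM of 3 annexins and of an S100 partner of each, per library, with A10KO (red) left of WT (blue) and a black bar for the mean of 3 libraries. S100a10, S100a11 and S100a6 do not overlap between the groups, whereas Anxa11 does.

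Outside the S100 family, the listed EF-hand partners of annexins A7 and A11 overlapped between the groups. Pdcd6, which encodes the calcium sensor ALG-2, averaged 75.3 ± 17.7 TPM in A10KO and 88.6 ± 6.04 TPM in WT, and Sri, sorcin, 104 ± 21.1 TPM in A10KO and 105 ± 6.75 TPM in WT (SD, n = 3 each). Ahnak, a very large scaffold protein that binds the annexin A2 complex, averaged 8.17 ± 2.08 TPM in A10KO and 11.2 ± 4.80 TPM in WT. On the plasminogen side of annexin A2, Plat, tissue plasminogen activator, averaged 3.92 ± 2.08 TPM in A10KO and 8.07 ± 1.52 TPM in WT (log2 change -0.95, SE 0.31, limma adjusted p = 0.463), and Plg, plasminogen, was at no more than 0.52 TPM. The formyl peptide receptor genes Fpr1, Fpr2 and Fpr3, whose products sense annexin A1, were listed at 0 in all 6 libraries.

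In the wider setting of annexin action, 0 of 34 tested genes in 4 further lists passed the threshold, against 0.0414% of all tested genes, a share at which a count of 0 says little about these lists. Of 16 membrane repair genes 13 were tested, 10 of them with a log2 change below 0, against 56.5% of all tested genes, and a median of -0.27. Capns1, the small calpain subunit, averaged 277 ± 37.2 TPM in A10KO and 368 ± 7.24 TPM in WT, and Chmp4b, an ESCRT-III subunit, 143 ± 29.2 TPM in A10KO and 178 ± 2.97 TPM in WT. Chmp2a, another ESCRT-III subunit, averaged 99.2 ± 11.6 TPM in A10KO and 101 ± 6.58 TPM in WT, and Pdcd6ip, the ESCRT adaptor ALIX, 52.8 ± 7.64 TPM in A10KO and 46.2 ± 0.877 TPM in WT. In the deposited values every A10KO library lay below every WT library for 6 of the 13, against 11.5% of all tested genes. For 1 of the 13 every A10KO library lay above, against 5.61%. Neither count was repeated under the other scalings, which lowered that of the annexins from 4 to 2. Among the lower genes, Chmp4b all but met between the groups (174.39 TPM in A10KO replicate 14, 175.41 TPM in WT replicate 3). So did Cavin1 (44.7 TPM in A10KO replicate 13, 45.44 TPM in WT replicate 1). Myof, 1 of the 6 lower genes, and Syt7, the 1 higher gene, are repair factor genes named after their values were seen. Myof had 4.48, 6.58 and 6.03 TPM in A10KO and 9.48, 15.2 and 11.3 TPM in WT, and Syt7 had 5.16, 2.94 and 2.09 TPM in A10KO and 1.59, 1.21 and 1.44 TPM in WT.

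Of the 9 copine genes, a separate family that also binds phospholipids in a calcium-dependent way, 5 were tested, with a median log2 change of -0.13. Cpne8 averaged 166 ± 50.3 TPM in A10KO and 98.7 ± 16.7 TPM in WT, whereas Cpne1 averaged 34.3 ± 10.2 TPM in A10KO and 45.8 ± 7.22 TPM in WT. Cpne2 and Cpne3 had log2 changes of -0.13 and 0.03. For genes that set which membrane leaflet holds phosphatidylserine, or that bind it outside, all 10 were tested, and the median was 0.08. Mfge8, a secreted phosphatidylserine binder, averaged 45.1 ± 14.2 TPM in A10KO and 69.5 ± 11.4 TPM in WT, and the scramblase family gene Plscr3 averaged 18.6 ± 3.63 TPM in A10KO and 33.0 ± 1.65 TPM in WT. Atp11a, a flippase gene, and Tmem30a, which encodes a flippase subunit, had log2 changes of 0.01 and 0.15. In the list of arachidonate release, which annexin A1 is known to restrain, 6 of 10 were tested with a median of -0.13, and Pla2g4a, cytosolic phospholipase A2, named after its values were seen, was listed at 0 in A10KO and at no more than 0.12 TPM in WT. Ptges3, Ptges2, Pla2g6 and Pla2g15 had log2 changes of 0.03, -0.10, -0.36 and -0.31.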

How the data were processed

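For 3 A10KO and 3 WT libraries, RNA was prepared with Trizol and a DNase I step, per the labels' protocols. The tools fastp, HISAT and RSEM and the build GRCm38.p5 are named in the submitters' processing notes; versions, roles and strand setting: not given in the sources used here. The deposited values are TPM, as read from the values (decimals, column sums of 969834.5 to 985044.6), although the table is presented as raw counts. Depth is therefore unknown, and count models were not run. Each library's own table equalled the series table in 6 of 6 cases.

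The members and gene lists were chosen with earlier results of these data known. The 12068 genes that reached 1 TPM in 3 or more libraries were tested with limma 3.58.1 (R 4.3.3, mean-variance trend) on log2(TPM + 1), a scale that understates changes of low genes, and adjusted by the Benjamini-Hochberg method over all of them. Intervals are 95%. Scripts were tested on simulated data. Named were all annexins and their partners, and of each further list any called member and the 4 tested members with the highest mean. Coordinates came from GENCODE M21 (GRCm38), start windows from RefSeq. Copies of annexin transcripts were sought with blastn 2.17.0. Protein sequences were not used here. Alternatives were a pseudocount of 0.1, other filters and scalings, no trend, and each library left out.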

Additional observations from a re-analysis of the deposited data

How the results depend on the processing

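The 13 alternative fits gave 103 results for the 8 annexins tested, each result being 1 gene in 1 fit. All 103 kept their direction and stayed above the threshold, so 0 annexins were called in any fit. The family median of -0.31 ran from -0.43 to -0.27 when single libraries were left out and was -0.26 with mitochondrial transcripts removed. The group difference in the annexin share of TPM (-0.03 percentage points) ran from -0.0372 to -0.0206 without single libraries. The count of genes called over all genes, 5, was 2 without WT replicate 1, 2 without WT replicate 2, 3 without WT replicate 3 and 8 without A10KO replicate 1, while it was 4 or 5 under the other alternatives. The cause was not tested. Without A10KO replicate 1 the partner gene S100a10 was called (log2 change -1.16, limma adjusted p = 0.0474). The log2 change of Sri, -0.024, turned to 0.032 once mitochondrial transcripts were taken out and 0.021 under either scaling (median-of-ratios, trimmed-mean), and ran from -0.129 to 0.154 without single libraries. Anxa9 and S100a4 could not be tested with a filter of 5 TPM, since they fell under it. No paired analysis was possible because the groups share only replicate number 1. Unknown depth leaves the precision of Anxa9 and of listed zeros undetermined.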
